A study of Mus musculus with 12 samples.

Results

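The baseline profile of myenteric glia without colitis comprised 6 of the 12 libraries of the study, those from mice that received an enema of 0.1 ml saline and no hapten. They fall into 2 groups of 3 libraries, Saline_GR159897 and Saline_Vehicle. Saline_GR159897 mice were injected with GR159897, which blocks the neurokinin receptor NK2, at 0.5 mg/kg in 0.1% DMSO, and Saline_Vehicle mice with 0.1% DMSO. Injections into the peritoneum were given daily over 3 days, beginning 24 hours before the enema, and tissue was taken 48 hours after it. All mice were C57BL/6, with the genotype written as Sox10::CreERT2+/- / Rpl22tm1.1Psam/J, and had tamoxifen chow (400 mg/kg) for 2 weeks and then normal chow for 1 week. Each group held 1 female and 2 males, and the labels give no age. The libraries were chosen by their labels alone, and within them 24394 gene symbols with an annotated transcript were analysed, of 99547 assembled loci. The unit is FPKM (fragments per kilobase of transcript, scaled to the mapped fragments of a library), which corrects for transcript length, so levels of different genes can be set beside each other. The sequencing depth behind each value is unknown.

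Enteric glia are the supporting cells of the gut's own nervous system and surround the neurons of the myenteric plexus, the nerve network between the muscle layers. They arise from the neural crest under the transcription factor Sox10 and share marker genes with astrocytes (Gfap, S100b) and with Schwann cells (Erbb3). In the RiboTag mouse, Cre recombinase switches the last exon of Rpl22 to one that carries an HA tag, so that ribosomes of cells with Cre activity, and the messenger RNA on them, can be precipitated with an antibody to the tag. Here Cre was under Sox10, which Schwann cells express too. No library of unprecipitated tissue was analysed here, so enrichment over the whole tissue was not measured and RNA carried along with the ribosomes cannot be told apart from RNA of tagged cells. The labels do not say whether a library holds 1 mouse or pooled mice, so p-values measure only the spread between these libraries.

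The starts of 3 glial genes are shown first. S100b and Gfap are marker genes of enteric glia. Gpm6b, a glial membrane proteolipid, is shown because its window holds the letters searched for. Each sequence is the 250 bases before the RefSeq start of the gene (GRCm38.p6), read 5′ to 3′ on the gene's strand. Capitals mark a match to ACAAAG or ACAATG, letters of the kind that Sox family proteins bind, searched on both strands. The windows are chr10:76253586-76253835 (plus strand) for S100b, chr11:102897201-102897450 (minus strand) for Gfap and chrX:166238693-166238942 (plus strand) for Gpm6b.
S100b: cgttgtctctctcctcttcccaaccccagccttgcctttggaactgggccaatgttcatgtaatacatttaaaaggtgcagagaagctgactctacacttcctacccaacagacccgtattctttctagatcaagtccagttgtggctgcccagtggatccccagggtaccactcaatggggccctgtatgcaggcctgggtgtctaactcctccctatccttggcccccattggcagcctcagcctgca
Gfap: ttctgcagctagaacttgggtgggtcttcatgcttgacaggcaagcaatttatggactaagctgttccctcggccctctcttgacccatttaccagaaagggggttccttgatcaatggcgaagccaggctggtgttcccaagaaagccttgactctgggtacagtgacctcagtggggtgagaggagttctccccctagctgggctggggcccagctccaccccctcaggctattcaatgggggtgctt
Gpm6b: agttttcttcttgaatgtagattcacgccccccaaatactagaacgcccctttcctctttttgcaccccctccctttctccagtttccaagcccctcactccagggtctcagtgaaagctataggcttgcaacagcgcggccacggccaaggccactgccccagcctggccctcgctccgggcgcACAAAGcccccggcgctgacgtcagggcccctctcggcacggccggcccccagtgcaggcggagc
Of 19 enteric glia genes, 12 had such a window, and Sox10 was among those without one. A match was found in 4 of their 14 windows (28.6%), those of Sox2, Gpm6b and Col28a1 and 1 of the 3 of Art3, and in 25.2% of all 32851 windows of the same length. A match describes these letters only.

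The 6 libraries were similar in complexity but not in composition. Between 10343 and 11087 symbols per library reached 1 FPKM. The share of summed FPKM on loci with an annotated transcript was 95.1%, 75.4% and 78.1% in Saline_GR159897 replicates 1 to 3 and 88.8%, 83.5% and 92.6% in Saline_Vehicle replicates 1 to 3. Across genes, which are not independent replicates, pairs of libraries had a Pearson correlation of log2(FPKM + 1) between 0.810 and 0.907, lowest between Saline_GR159897 replicates 1 and 2, and no pair was identical. The Y-linked genes Ddx3y, Eif2s3y, Kdm5d and Uty ranged from 0.30 to 10.2 FPKM over the 4 males and did not exceed 0.02 FPKM in the 2 females, and Xist, the RNA of the inactive X, was highest in the female ones at 1.69 and 0.53 FPKM. Tbp, a general transcription factor, had a listed 0 in the third Saline_GR159897 library, and other listed zeros are therefore not taken to mean that a gene is off. Gfap was blank in all 3 Saline_Vehicle libraries, and nothing was filled in.

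The most abundant transcripts of the precipitates were those of Cst3, Apoe and Sparc, which encode secreted proteins. Cst3, which encodes the secreted protease inhibitor cystatin C, ranked first, with 8318, 9168 and 6895 FPKM in Saline_GR159897 libraries against 7761, 7279.9 and 7264 FPKM in Saline_Vehicle libraries. Its values overlapped between the groups and spread little, with an SD of 0.15 on the log2(FPKM + 1) scale. Apoe, the apolipoprotein that glia secrete, was second with 5353, 7694 and 4175 FPKM in Saline_GR159897 libraries against 3501, 3057 and 4701 FPKM in Saline_Vehicle libraries. Sparc, a secreted matrix glycoprotein, was the third, at a mean of 3190.1 ± 1260.0 FPKM (SD, n = 6). The class I antigen chain H2-D1 followed at 2487 ± 762 FPKM, and its partner B2m at 1317 ± 533 FPKM. Tmsb4x, which binds actin monomers, was at 2099 ± 1278 FPKM and Itm2b, a widely expressed membrane protein, at 1441 ± 545 FPKM. Dbi, an acyl-CoA-binding protein and precursor of a glial peptide, was at 1246 ± 336 FPKM and Cpe, the carboxypeptidase that matures peptide hormones, at 1066 ± 313 FPKM.

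Among the 30 highest symbols stood genes of glia, of muscle and of general metabolism side by side. Smooth muscle was represented by Csrp1, a LIM protein (1122 ± 248 FPKM), the tropomyosin Tpm2 (768 ± 319 FPKM), the actin-binding Tagln (751 ± 219 FPKM) and calponin, Cnn1 (656 ± 271 FPKM; SD, n = 6 each). Calcium- and membrane-binding proteins were the annexin Anxa5 (899 ± 371 FPKM), S100a6 (871 ± 185 FPKM), the tetraspanin Cd9 (1041 ± 389 FPKM) and calmodulin, Calm2 (664 ± 304 FPKM). The LIM proteins Crip2 and Crip1 were at 1061 and 719 FPKM, the tubulin-binding Tppp3 at 836 FPKM, ferritin heavy chain, Fth1, at 842 FPKM, the growth factor binder Igfbp7 at 903 FPKM and brain creatine kinase, Ckb, at 702 FPKM. Energy metabolism entered with the respiratory chain subunits Cox6b1 at 743 FPKM and Ndufa2 at 719 FPKM. Loci that merge several genes cannot be assigned to one of them: Fxyd7 with Fxyd1 (924 FPKM), Ifitm2 with Ifitm3 and others (756 FPKM), and Stmn1 with Gm23634 (702 FPKM). Exons of Cd9, Igfbp7, Tagln and Ndufa2 overlap those of a gene on the opposite strand, and no source used here states that strand was counted.

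The profile was steep. Of the 24394 symbols, 8049 (33%) reached 1 FPKM in all 6 libraries, 3602 had a mean of 10 FPKM or more, 417 of 100 or more and 12 of 1000 or more, while 2694 were listed at 0 in all 6. The 100 symbols with the highest mean took 27.8% to 30.9% of the annotated FPKM of each library, and the 500 highest 51.6% to 54.4%. Of the 100 symbols with the highest mean, 92 were protein-coding genes and 2 pseudogenes. Nuclear genes of the respiratory chain and ATP synthase were prominent, with 45 of 73 among the 500 highest symbols and a median of 136 FPKM. Cytosolic ribosomal protein genes placed 25 of 78 there, with a median of 58.7 FPKM and the highest, Rpl41, at 341 FPKM. The median over all symbols was 0.685 FPKM.

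**Figure D1:**
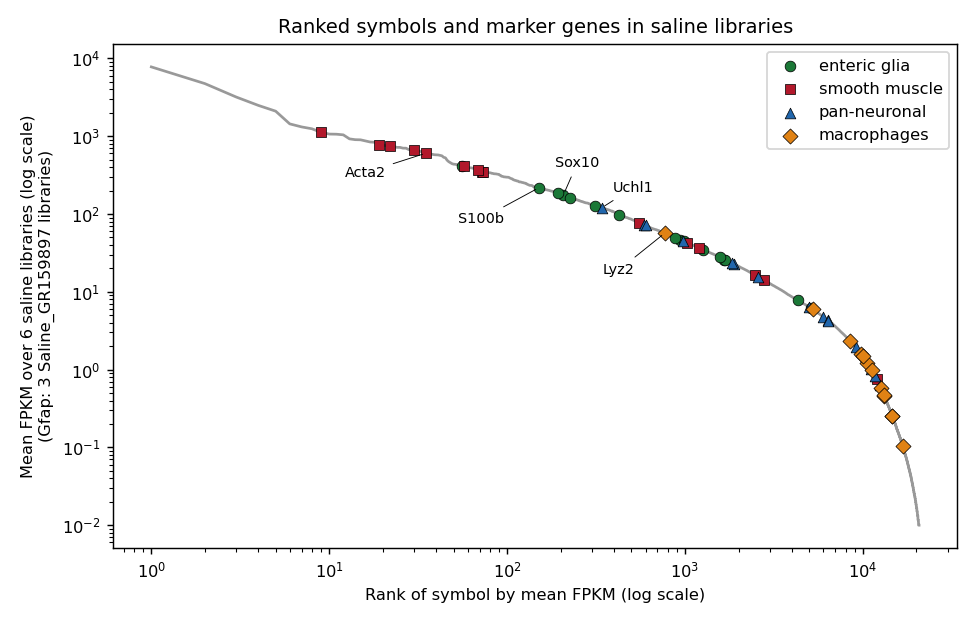
Mean FPKM over the 6 saline libraries against the rank of each symbol, both on log scales, with genes of 4 marker lists as coloured symbols (Gfap is a mean of 3 libraries; symbols under 0.01 FPKM are not drawn). Smooth muscle genes hold the highest ranks among the 4 lists, genes such as S100b (rank 151) and Sox10 (rank 207) follow, and macrophage genes except Lyz2 lie below 10 FPKM.

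The defining markers of enteric glia were present, which fits the label, although 1 library was low for the gene that drives Cre. Sox10 (ENSMUSG00000033006, chromosome 15, 79154908 to 79165240, GRCm38) was at 239, 141 and 228 FPKM in Saline_GR159897 and at 179, 15.4 and 248 FPKM in Saline_Vehicle libraries. Saline_Vehicle replicate 2 alone lay below 100 FPKM. S100b (ENSMUSG00000033208, chromosome 10, 76253853 to 76261159), a calcium-binding protein of glia, was at 157, 265 and 288 FPKM in Saline_GR159897 and at 182, 202 and 213 FPKM in Saline_Vehicle libraries, with overlapping groups and no low library. Gfap (ENSMUSG00000020932, chromosome 11, 102887336 to 102900912), the intermediate filament of glia, was at 323, 89.8 and 152 FPKM in Saline_GR159897 and blank in Saline_Vehicle libraries. These 3 genes ranked 207, 151 and 193.

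Of the 16 enteric glia genes with a locus of their own and no blank, 14 (87.5%) reached 1 FPKM in all 6 libraries, beside 33% of all symbols. Their median mean level was 45.8 FPKM. Cryab, a small heat shock protein, was the highest at 413 ± 112 FPKM, and it shares exon sequence with Hspb2 on the opposite strand. After S100b and Sox10, the surface enzyme Art3 (162 ± 46.1 FPKM), the matrix protein Matn2 (127 ± 43.9 FPKM) and Gpm6b (98.0 ± 41.6 FPKM) followed (SD, n = 6 each). Erbb3, the neuregulin receptor of glia and Schwann cells, was the steadiest of those detected, with 25.2, 24.7 and 31.5 FPKM in Saline_GR159897 libraries against 26.0, 26.4 and 22.03 FPKM in Saline_Vehicle libraries. Its SD was 0.16 on the log2(FPKM + 1) scale. The collagen gene Col28a1 (44.9 ± 9.02 FPKM) also varied little.

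Other glial genes varied several-fold between libraries of the same group. Lgi4, a secreted protein that acts between glia and axons, was at 67.7, 7.94 and 16.1 FPKM in Saline_GR159897 and at 22.9, 12.0 and 39.4 FPKM in Saline_Vehicle libraries. It was highest in Saline_GR159897 replicate 1 and lowest in replicate 2 of that group. The endothelin receptor Ednrb ran from 6.77 to 49.7 FPKM, with the same libraries at its ends. The sodium channel Scn7a went otherwise, at 15.5, 12.1 and 56.8 FPKM in Saline_GR159897 libraries against 101, 86.7 and 26.2 FPKM in Saline_Vehicle libraries. The fatty acid binding protein Fabp7 lay between 17.1 and 76.6 FPKM, and the neurotrophin receptor Ngfr between 3.83 and 12.4 FPKM. Entpd2, the ATP-degrading enzyme of enteric glia, is merged with Npdc1 (187 FPKM), and the cadherin Cdh19 with Gm38255 (8.02 FPKM).

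Sox2 and Foxd3, transcription factors of neural crest progenitors, were largely or wholly listed at 0. Sox2 was at 24.3, 0 and 0 FPKM in Saline_GR159897 and at 0, 0 and 22.5 FPKM in Saline_Vehicle libraries. Foxd3 was listed at 0 in all 6. Both genes have a single exon, a class of genes with large spread here, as given further on.

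**Figure D2:**
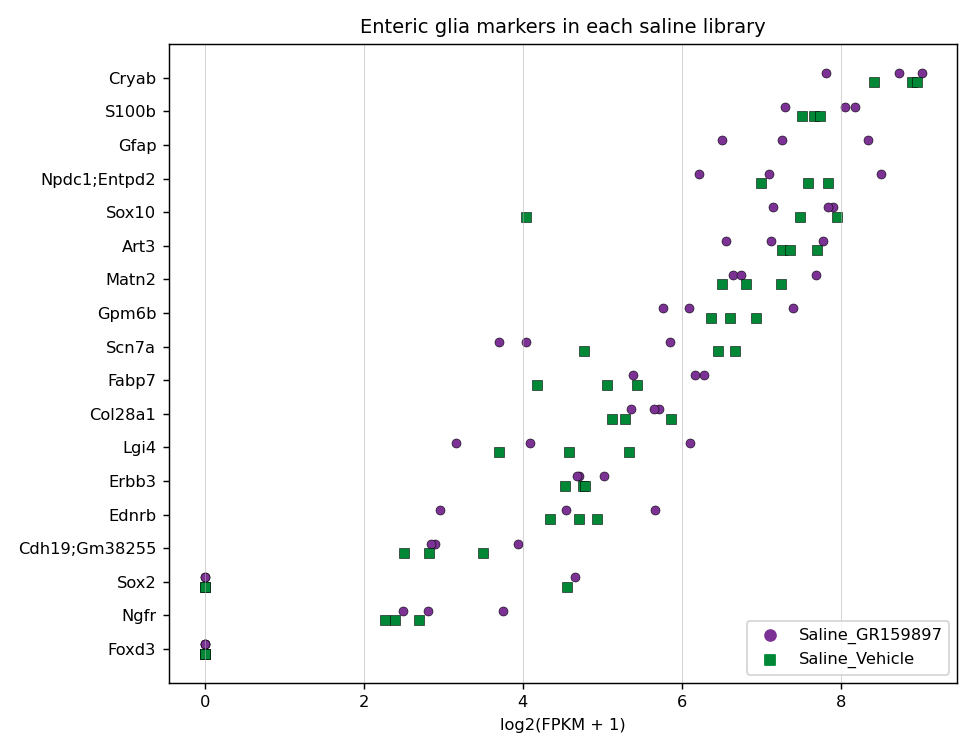
Level of the enteric glia genes reported by name as log2(FPKM + 1), 1 row per locus, with a point for each library (circles Saline_GR159897, squares Saline_Vehicle; n = 3 each, Gfap without Saline_Vehicle values). The groups overlap for most genes, Sox10 has 1 low Saline_Vehicle library at 15.4 FPKM, and Sox2 is either near 22 to 25 FPKM or listed at 0.

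Summed over the 16 genes, the glial level was 1913, 1050.4 and 1499 FPKM in Saline_GR159897 libraries against 1524, 1135 and 1654 FPKM in Saline_Vehicle libraries, a mean of 1463 ± 323 FPKM (SD, n = 6). As a share of annotated FPKM the glial list took 0.74%, 0.45% and 0.61% in Saline_GR159897 and 0.64%, 0.47% and 0.64% in Saline_Vehicle libraries. The 3 libraries with the highest glial sums were also the 3 with the highest annotated share, at 88.8% or more, and the part of that share in the differences was not tested. In such mixed tissue, fewer cells of a type and less RNA per cell cannot be told apart.

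Genes of glial metabolism and secretion, known best from astrocytes, included the highest symbols of the whole profile beside genes of low level. Of 12 such genes, 11 (91.7%) reached 1 FPKM in all 6 libraries, beside 33% of all symbols. The median of the 12 was 92.8 FPKM. Gpr37l1, a receptor of glia, was at 1331, 286 and 457 FPKM in Saline_GR159897 and at 545, 457 and 715 FPKM in Saline_Vehicle libraries. Ndrg2, an astrocyte protein of the cytosol, was at 271 ± 72.4 FPKM, the growth factor Ptn at 102 ± 24.8 FPKM and the glycolytic enzyme Aldoc at 83.5 ± 47.0 FPKM (SD, n = 6 each). At the low end, Glul, the glutamine synthetase, was at 6.33 ± 1.94 FPKM. Slc1a3, the glial glutamate transporter, was at 1.21 ± 0.42 FPKM, which places it at rank 10623.

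Myelin genes split into those that were abundant and those that were low. Of 11 genes of Schwann cell myelin, 4 reached 1 FPKM in all 6 libraries (36.4%), close to the 33% of all symbols, and the median was 0.79 FPKM. Pmp22, a membrane protein of compact myelin that many cells make, was at 466, 21.9 and 218 FPKM in Saline_GR159897 and at 52.5, 30.4 and 380 FPKM in Saline_Vehicle libraries. Both groups spanned a low and a high library, which gave an SD of 1.90 on the log2(FPKM + 1) scale. Cnp, an enzyme of the myelin cytoskeleton, was at 73.9, 12.1 and 18.4 FPKM in Saline_GR159897 and at 113, 92.3 and 121 FPKM in Saline_Vehicle libraries. Its groups did not overlap, as for 7.24% of the genes tested between the arms (4.22% with all Saline_GR159897 values lower and 3.02% with all higher). Its log2 difference of −2.03 ± 0.60 (SE) did not pass limma's test (adjusted p = 1.0). Exons of Cnp overlap those of Dnajc7 on the opposite strand. The raft proteolipid Mal was at 32.6 ± 10.3 FPKM and myelin basic protein, Mbp, at 19.7 ± 8.40 FPKM. Egr2, a transcription factor of myelinating Schwann cells, was at most 1.28 FPKM and Prx, a protein of the same cells, at most 1.73 FPKM.

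Among other transcription factors of the glial lineage, Id3 was far above the rest. Id3, an inhibitor of basic helix-loop-helix factors, was at 183, 203 and 158 FPKM in Saline_GR159897 and at 288, 252 and 185 FPKM in Saline_Vehicle libraries. The nuclear factor Nfib followed at 5.14 ± 1.22 FPKM and Sox8, which belongs to the same subgroup as Sox10, at 2.97 ± 1.55 FPKM (SD, n = 6). Sox9 was at most 0.11 FPKM in any library. In all, 5 of 11 such genes (45.5%) reached 1 FPKM in all 6 libraries, beside 33% of all symbols.

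Genes of receptors known from glia ranged in mean level from 73.0 FPKM to nearly 0. Lpar1, the receptor for lysophosphatidic acid, had the highest mean of 24 genes, with 221, 18.6 and 39.0 FPKM in Saline_GR159897 libraries against 45.0, 47.5 and 67.2 FPKM in Saline_Vehicle libraries. The order rests on 1 library: without Saline_GR159897 replicate 1 the mean of Lpar1 was 43.5 FPKM and that of Gfra1 57.6 FPKM. With all 6 libraries the GDNF family coreceptor Gfra1 was at 57.0 ± 16.5 FPKM, Gfra2 at 30.1 ± 19.8 FPKM and Gfra3 at 18.3 ± 8.72 FPKM (SD, n = 6 each). Of the ATP-gated channels, P2rx4 was at 9.08 ± 3.46 FPKM and P2rx7 at 6.17 ± 2.05 FPKM, while the ATP receptor P2ry1 was at 1.82 ± 1.09 FPKM.

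The neurokinin receptors, of which the product of Tacr2 is the target of GR159897, were low. Tacr2 was at 0.30, 1.23 and 2.39 FPKM in Saline_GR159897 and at 0.96, 2.50 and 0.54 FPKM in Saline_Vehicle libraries. These values overlap between the groups. Tacr3 was higher, at 6.13 ± 1.94 FPKM, and Tacr1 lower, at 0.85 ± 0.66 FPKM (SD, n = 6 each). The connexin Gja1, which forms channels between glia, was at most 0.95 FPKM in any library, and the hemichannel gene Panx1 was at 3.28 ± 1.24 FPKM. Of the 24 genes, 9 (37.5%) reached 1 FPKM in all 6 libraries, close to the 33% of all symbols.

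Neuronal transcripts were present in all 6 libraries. Of 15 pan-neuronal genes with a locus of their own, 11 (73.3%) reached 1 FPKM in all 6, beside 33% of all symbols. The 15 summed to 367, 463 and 397 FPKM in Saline_GR159897 and to 326, 387 and 426 FPKM in Saline_Vehicle libraries. This sum varied less than the glial one, with a mean of 394 ± 47.2 FPKM (SD, n = 6). Uchl1, a ubiquitin hydrolase of neurons, was at 122, 114 and 132 FPKM in Saline_GR159897 and at 93.6, 126 and 132 FPKM in Saline_Vehicle libraries. It overlaps an antisense transcript. The stathmin Stmn3 was at 72.1 ± 22.7 FPKM and Gap43, a growth cone protein that Schwann cells can make too, at 71.4 ± 5.69 FPKM. The synaptic genes Snap25 and Syt1 were lower, at 4.30 ± 2.43 and 4.27 ± 2.11 FPKM, and Rbfox3, which encodes the nuclear marker NeuN, did not reach 1 FPKM in any library.

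Gal, the precursor of galanin, led the transmitter and peptide genes and was at 244, 201 and 116 FPKM in Saline_GR159897 and at 262, 194 and 137 FPKM in Saline_Vehicle libraries. Vip was at 51.1 ± 12.7 FPKM (SD, n = 6) and Tac1, the precursor of substance P and neurokinin A, at 21.1 ± 6.19 FPKM. Sst, the precursor of somatostatin, was at 102, 0.87 and 0.57 FPKM in Saline_GR159897 and at 0.40, 2.88 and 80.7 FPKM in Saline_Vehicle libraries. It was thus high in 1 library of each group and below 3 FPKM in the other 4. Of the enzymes, Dbh, which makes noradrenaline, was at 10.5 ± 6.15 FPKM. Nos1, the neuronal nitric oxide synthase, was at 5.73 ± 2.08 FPKM, Chat, which makes acetylcholine, was at most 0.71 FPKM, and Th, which makes the dopamine precursor, was listed at 0 in 5 libraries and at 1.62 FPKM in Saline_Vehicle replicate 2. The peptide gene Calca averaged 0.08 FPKM. Of 17 transmitter and peptide genes, 12 (70.6%) reached 1 FPKM in all 6 libraries, beside 33% of all symbols. The median of the 17 was 10.5 FPKM.

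Smooth muscle genes had the highest median of all marker lists, so the libraries held RNA of genes that mark muscle beside RNA of genes that mark glia. Of 15 such genes, 14 (93.3%) reached 1 FPKM in all 6 libraries, beside 33% of all symbols. The median of the 15 was 351 FPKM. Their sum was 3895, 4999 and 5270.2 FPKM in Saline_GR159897 libraries against 6115, 7352 and 5804 FPKM in Saline_Vehicle libraries. All 3 Saline_GR159897 sums were below all 3 Saline_Vehicle sums, as for 4 of the 25 list sums (16%), those of smooth muscle, fibroblasts, macrophages and adipocytes. No test was run on sums. The ratio of the smooth muscle to the glial sum, which depends on the genes in each list, was 2.04, 4.76 and 3.52 in Saline_GR159897 and 4.01, 6.48 and 3.51 in Saline_Vehicle libraries. It was above 2 in each library and lowest in Saline_GR159897 replicate 1. In that library Csrp1 alone was at 1401 FPKM, beside the muscle sum of 3895 FPKM, and the ratio without Csrp1 was not computed.

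Among single muscle genes, the actin Acta2 was at 482, 326 and 643 FPKM in Saline_GR159897 and at 812, 733 and 640 FPKM in Saline_Vehicle libraries. Desmin, Des, the intermediate filament of muscle, was at 186, 336 and 364 FPKM in Saline_GR159897 and at 324, 523 and 372 FPKM in Saline_Vehicle libraries. The myosin heavy chain Myh11 spread the widest of the abundant ones, with 78.0, 495 and 490 FPKM in Saline_GR159897 libraries against 201, 703 and 482 FPKM in Saline_Vehicle libraries. Each group had its lowest Myh11 value in replicate 1. Myocd, the coactivator of the muscle programme, was low, at most 2.04 FPKM in any library.

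Among the lists of Cajal cells, fibroblasts, pericytes, endothelium and mesothelium, the fibroblast list had the highest median, at 8.01 FPKM. Among genes of the interstitial cells of Cajal, the pacemaker cells of the gut, Kit and Ano1 were at 1.298 ± 0.77 and 1.61 ± 0.99 FPKM, while Etv1 was at 23.9 ± 4.10 FPKM (SD, n = 6 each). Of the fibroblast genes with a locus of their own, Dcn, a proteoglycan, was the highest (20.5 ± 9.29 FPKM). The collagens Col1a1 (15.4 ± 6.03 FPKM) and Col1a2 (14.8 ± 2.88 FPKM) followed. A further collagen, Col3a1, is merged with AC125167.1, and that locus was higher, at 51.2 ± 6.66 FPKM. The fibroblast sum, which leaves out merged loci, was 58.9, 46.3 and 68.1 FPKM in Saline_GR159897 libraries against 90.2, 82.2 and 88.0 FPKM in Saline_Vehicle libraries. Pericyte genes were led by Rgs5 at 29.1 ± 15.0 FPKM, with Kcnj8 at 4.68 and Cspg4 at 3.76 FPKM. Endothelial genes were near the floor, with 1 of 10 (10%) at 1 FPKM in all 6 libraries, beside 33% of all symbols. The adhesion proteins Pecam1 and Cdh5 were at most 0.52 and 1.20 FPKM. Claudin 5, Cldn5, was the highest of these 10, which have a locus of their own, at 4.15 ± 2.62 FPKM. It was followed by Lyve1 of lymphatic vessels at 1.96 FPKM and Esam at 0.93 FPKM. The mesothelial genes Upk3b and Msln had means of 2.16 and 2.09 FPKM, and Wt1 was at most 0.42 FPKM.

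**Figure D3:**
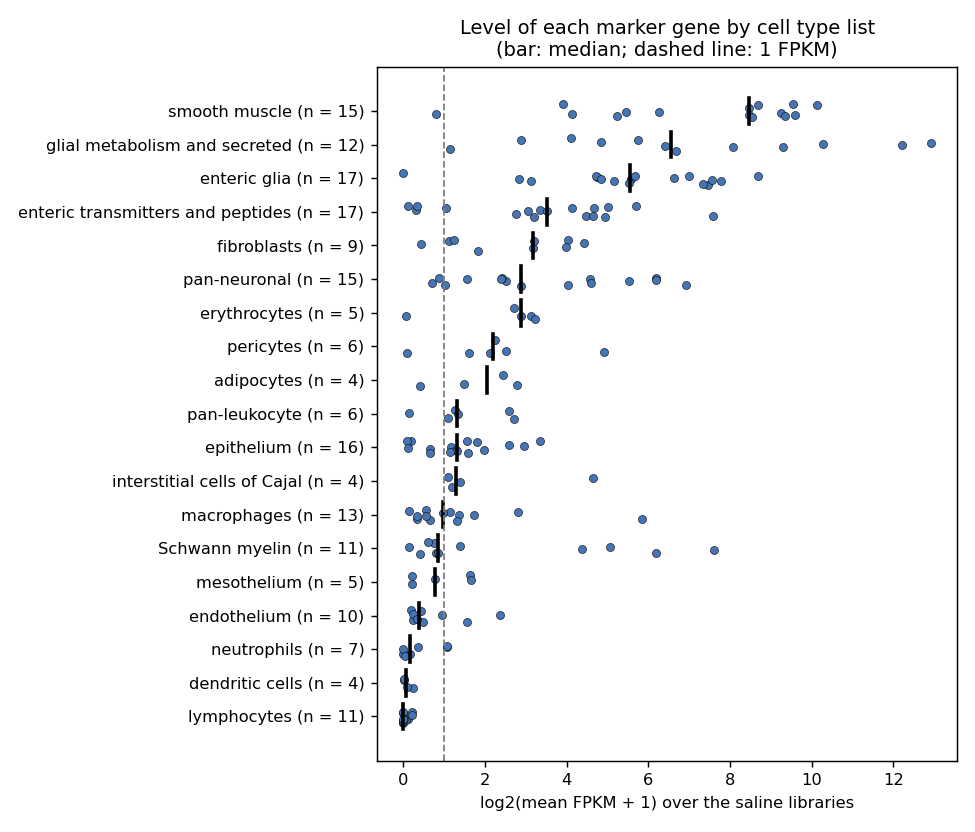
Mean level of each marker gene as log2(mean FPKM + 1) over the saline libraries, 1 row per list in order of the list's median (black bar), with the number of genes that have a locus of their own; the dashed line is 1 FPKM. Smooth muscle has the highest median at 351 FPKM, enteric glia has 45.8 FPKM without Gfap, and the lymphocyte, dendritic cell and neutrophil lists have medians under 1 FPKM.

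Macrophage genes other than Lyz2 were low in these libraries. Lyz2, the lysozyme of macrophages, was at 50.2, 35.6 and 34.3 FPKM in Saline_GR159897 and at 101, 60.8 and 57.6 FPKM in Saline_Vehicle libraries. The 2 groups did not overlap for this gene, but its log2 difference of −0.82 ± 0.33 (SE) did not pass limma's test between the arms (adjusted p = 1.0), in which 0.00898% of genes passed. In 4.22% of the genes tested all Saline_GR159897 values were lower, as here. The sum of 13 macrophage genes was 58.6, 55.0 and 50.4 FPKM in Saline_GR159897 libraries against 118, 73.9 and 77.0 FPKM in Saline_Vehicle libraries, most of it from Lyz2. The receptor Csf1r was at most 1.11 FPKM and Adgre1, which encodes F4/80, at most 1.12 FPKM. The complement genes C1qb and C1qa had means of 5.95 and 2.33 FPKM. Of the 13 genes, 2 (15.4%) reached 1 FPKM in all 6 libraries, beside 33% of all symbols. Class II antigen genes are in none of the lists, and H2-Ab1, named after its values were seen, was at 36.6, 9.15 and 368 FPKM in Saline_GR159897 and at 20.3, 46.6 and 61.1 FPKM in Saline_Vehicle libraries. It was highest in Saline_GR159897 replicate 3.

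Neutrophil and lymphocyte genes had medians of 0.127 and 0 FPKM, against 1.47 FPKM for pan-leukocyte and 0.977 FPKM for macrophage genes. Ptprc, the pan-leukocyte antigen CD45, was at most 0.22 FPKM, and the signalling adaptors Tyrobp and Fcer1g had means of 5.58 and 4.98 FPKM. The calprotectin genes S100a8 and S100a9 were at 5.59 and 6.09 FPKM in Saline_GR159897 replicate 3 and at most 0.45 and 0.25 FPKM in the other 5 libraries. Cxcr2 and Mpo, further neutrophil genes, were listed at 0 in all 6. So were 6 of 11 lymphocyte genes, among them Cd3e, Cd3g, Trac, Ms4a1 and Cd79b. No member of the pan-leukocyte, neutrophil and lymphocyte lists, and none of 4 dendritic cell genes, reached 1 FPKM in all 6 libraries. Of all symbols, 33% did. The highest dendritic cell gene, Zbtb46, was at most 0.42 FPKM. Mast cell genes were not analysed here.

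Fat cell genes marked 1 library, while epithelial genes were highest in 2. The fat cell genes Adipoq, Fabp4 and Cidec were at 24.7, 25.7 and 10.2 FPKM in Saline_Vehicle replicate 3 and at most 1.65, 4.87 and 0.24 FPKM in the other 5 libraries. The sum of 16 epithelial genes was 21.3, 19.0 and 15.9 FPKM in Saline_GR159897 libraries against 14.2, 55.0 and 98.0 FPKM in Saline_Vehicle libraries. Tff3, a peptide of goblet cells, carried part of it, with 25.4 and 22.02 FPKM in Saline_Vehicle replicates 2 and 3 and at most 3.18 FPKM elsewhere. Chga, of enteroendocrine cells and neurons, was at 6.72 ± 3.24 FPKM, and Epcam, the epithelial adhesion protein, at most 4.29 FPKM. The 5 erythrocyte genes summed to 5.35, 39.7 and 21.3 FPKM in Saline_GR159897 and to 20.2, 22.3 and 58.3 FPKM in Saline_Vehicle libraries, nearly all from the globin genes. Hbb-bs, the highest, was at 8.28 ± 6.06 FPKM.

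**Figure D4:**
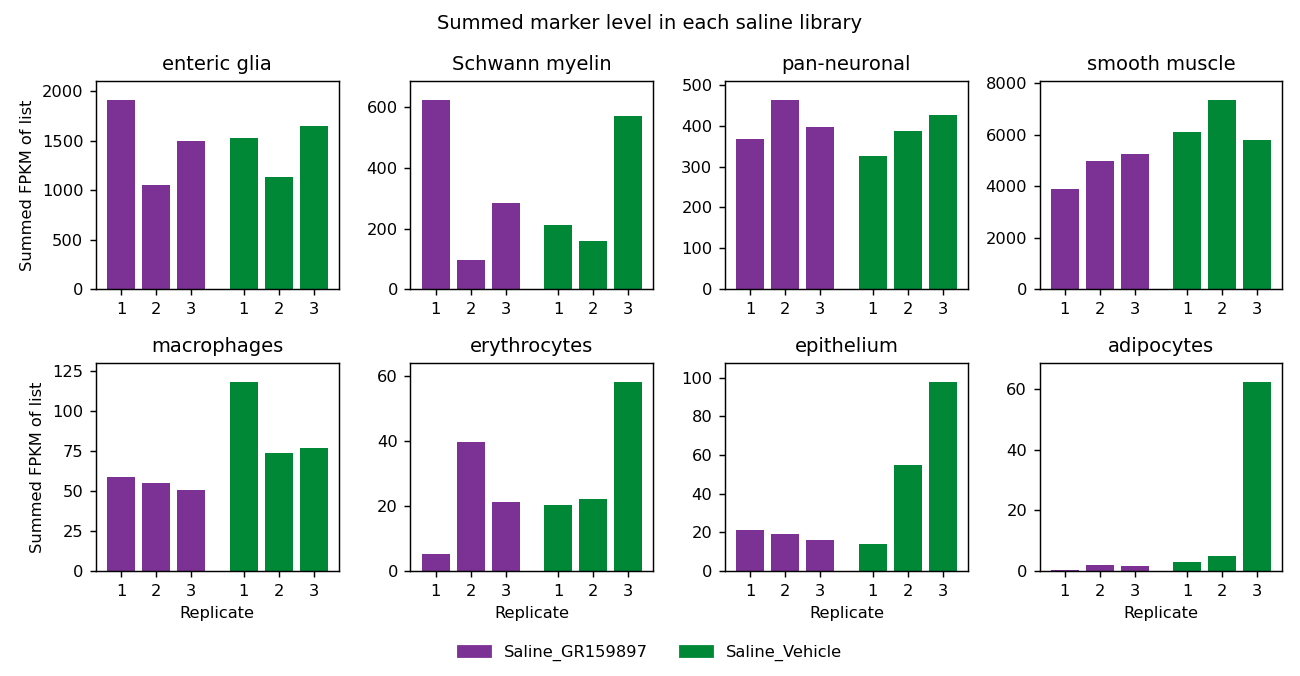
Summed FPKM of 8 marker lists in each library, with Saline_GR159897 on the left and Saline_Vehicle on the right of each panel and a separate axis from 0 for each list (1 bar per library, no error bars). Glial and neuronal sums overlap between the groups, smooth muscle, macrophage and adipocyte sums are lower in each Saline_GR159897 library than in any Saline_Vehicle library (4 of all 25 list sums are, 16%), and the adipocyte bar stands out at 62.5 FPKM in Saline_Vehicle replicate 3.

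Immediate early genes, which cells switch on soon after a stimulus, were well represented. Of 12 such genes, 10 (83.3%) reached 1 FPKM in all 6 libraries, beside 33% of all symbols. The sum of the 12 was 406, 164 and 206 FPKM in Saline_GR159897 libraries against 232, 203 and 289 FPKM in Saline_Vehicle libraries. Jun was at 45.5 ± 10.4 FPKM, the orphan receptor Nr4a1 at 42.6 ± 28.8 FPKM and the stress-responsive factor Klf6 at 37.9 ± 11.8 FPKM (SD, n = 6 each), and Jun overlaps an antisense gene. Fos was at 62.2, 18.5 and 20.7 FPKM in Saline_GR159897 and at 29.7, 22.3 and 34.02 FPKM in Saline_Vehicle libraries. The highest value was again in Saline_GR159897 replicate 1.

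Genes often used as references for RNA amount differed in how even they were. Actb was at 674, 169 and 374 FPKM in Saline_GR159897 and at 308, 261 and 369 FPKM in Saline_Vehicle libraries. The 12 housekeeping genes summed to 2885, 1058 and 2903 FPKM in Saline_GR159897 and to 2883, 2148 and 2403 FPKM in Saline_Vehicle libraries. B2m and the isomerase Ppia (283 ± 60.7 FPKM) were lowest in Saline_GR159897 replicate 2, as was the sum. Gapdh, a glycolytic enzyme, was at 19.97 ± 7.38 FPKM, while Pgk1, of the same pathway, was higher and more even at 68.4 ± 7.93 FPKM (SD, n = 6 each). Rpl22, the gene that carries the tag, was at 1.85, 7.21 and 8.38 FPKM in Saline_GR159897 and at 9.61, 7.41 and 6.42 FPKM in Saline_Vehicle libraries. Its paralog Rpl22l1 was at 28.5 ± 8.88 FPKM, and both were lowest in Saline_GR159897 replicate 1.

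On the log2(FPKM + 1) scale, the spread between the 6 libraries was similar at all levels above the filter. Adding 1 narrows the spread of low values most, and no other pseudocount was tried by level. Over the 11131 genes that reached 1 FPKM in 3 or more libraries, the median SD of log2(FPKM + 1) was 0.45. It was 0.45 for means of 1 to 10 FPKM, 0.44 for 10 to 100 FPKM and 0.43 for 100 FPKM or more. Of 3601 genes with a mean of at least 10 FPKM and no blank, 283 had an SD under 0.2 and 370 one above 1. The steadiest was Pdcd6, a calcium-binding protein of membrane traffic, at 142, 136 and 138 FPKM in Saline_GR159897 libraries against 135, 138 and 141 FPKM in Saline_Vehicle libraries. Rplp0, a stalk protein of the ribosome, lay between 201 and 219.8 FPKM and Akr1a1, an aldehyde reductase, between 309.8 and 349.8 FPKM. Among the others of the 10 smallest SDs were Dnajc3, Rit1, Eif3k, Ufc1, Spop and the merged locus of Lypla1 and Tcea1, with SDs up to 0.09.

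At the other extreme were genes that were abundant in some libraries and all but missing in others. Jund, a subunit of the AP-1 transcription factor, had the largest SD (4.11), with 381, 0.32 and 0.17 FPKM in Saline_GR159897 libraries against 145, 184 and 0.24 FPKM in Saline_Vehicle libraries. Lars2, the mitochondrial leucyl-tRNA synthetase, was at 0.30, 374 and 271 FPKM in Saline_GR159897 and at 108, 0.23 and 0.66 FPKM in Saline_Vehicle libraries. The mitochondrial gene mt-Nd6 was at 0, 0.10 and 0.01 FPKM in Saline_GR159897 and at 160.5, 2.36 and 42.7 FPKM in Saline_Vehicle libraries. For Jund and Lars2 high and low libraries occurred in both groups. The other 7 of the 10 largest SDs were predicted genes or pseudogenes. Jund and mt-Nd6 share exon sequence with a gene on the opposite strand.

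Such symbols mostly had a single exon, although the protein-coding genes among them mostly had several. Of 2935 symbols that reached 20 FPKM in at least 1 of the 6 libraries, 182 were at 1 FPKM or less in another, a definition chosen after the values were seen. Where the exon number is known, 113 of 180 of them (62.8%) had a single exon, against 106 of 2751 (3.85%) of the remainder. Many were pseudogenes, 82 of the 182. Of the 87 that were protein-coding genes, 29 (33.3%) had a single exon and 58 several. Among protein-coding genes, 29 of 54 with a single exon (53.7%) showed this pattern, against 58 of 2542 with several exons (2.28%). The RNA-binding protein gene Pcbp1 reached 99.4 FPKM and was listed at 0 in 1 library, and the linker histone gene H1f0 ran from 0 to 77.0 FPKM. Sox2 is of the same kind.

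**Figure D5:**
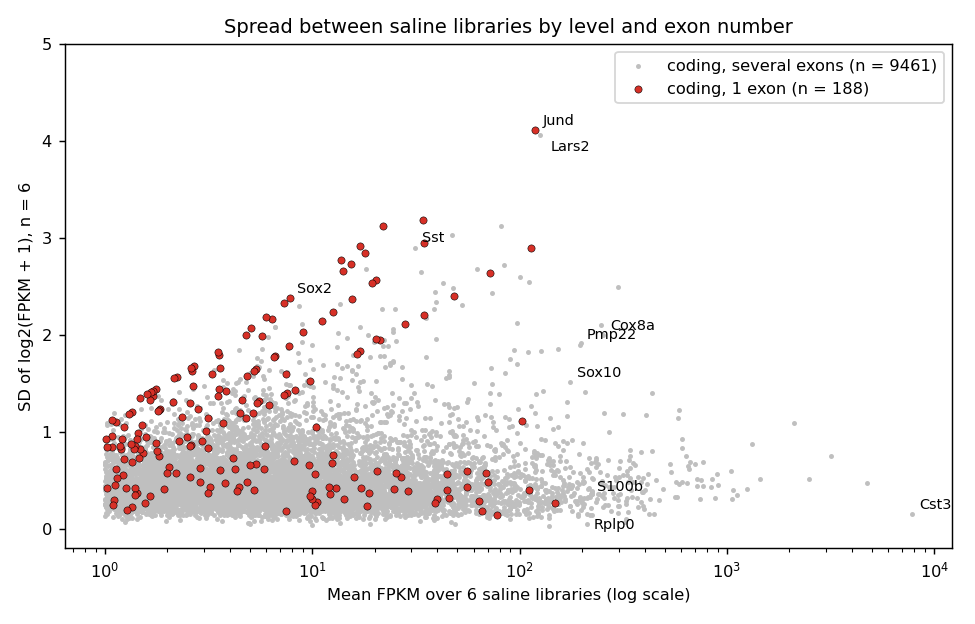
SD of log2(FPKM + 1) over the 6 saline libraries against the mean FPKM on a log scale, for protein-coding genes with a mean of at least 1 FPKM and no blank. Genes with 1 exon (red, n = 188) have a median SD of 0.92 and those with several exons (grey, n = 9461) one of 0.44; Jund and Lars2 lie at the top, Cst3 and Rplp0 near the bottom.

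Whether both drug arms may be read as 1 baseline was asked by testing Saline_GR159897 against Saline_Vehicle libraries with limma. Of 11131 genes, 1 passed at an adjusted p of 0.05 (0.00898%), against 344 with an unadjusted p under 0.05. This gene, Gm15453, is a processed pseudogene with a single exon. It was at 7.64, 6.07 and 7.14 FPKM in Saline_GR159897 libraries and listed at 0 in all 3 Saline_Vehicle libraries (limma adjusted p = 0.0409). Gm15453 met the filter of 1 FPKM in 3 libraries only through the Saline_GR159897 libraries. Its call is therefore not taken as support for a difference between the arms. A further locus of the same name, without an annotated transcript, was listed at 0 in the Saline_GR159897 libraries and at 1.66, 1.06 and 0.28 FPKM in the Saline_Vehicle libraries. No tested gene of the 26 marker lists passed with all 6 libraries. Gfap, Sox2 and Foxd3 were among the list genes not tested, having blanks or too few values at 1 FPKM. The count was 10, 3 and 3 without Saline_GR159897 replicates 1, 2 and 3 and 0, 2 and 0 without Saline_Vehicle replicates 1, 2 and 3. Cnp was among the 10 called without Saline_GR159897 replicate 1, and was lower in Saline_GR159897. With a sex term it was 0, and it was 0 with all 12 libraries in the fit. So few calls do not show that the arms were alike.

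Sex was the other labelled difference. Between the 2 female and the 4 male saline libraries limma with a term for the drug arm called 0 of 11131 genes (0%), against 308 with an unadjusted p under 0.05. Even Ddx3y, a Y-linked RNA helicase, had a log2 difference of −3.09 ± 0.45 (SE) with an adjusted p of 0.531, being lower in both females than in each of the 4 males. The smallest adjusted p was that of Cox8a, a subunit of cytochrome oxidase, at 24.2 and 24.2 FPKM in the female libraries and 256, 457, 370.3 and 378 FPKM in the male ones (log2 difference −3.83 ± 0.35, adjusted p = 0.129). Fem1a was listed at 0 in both females and lay between 3.09 and 5.07 FPKM in the males (adjusted p = 0.531). Higher in both females were Tgoln1 of the Golgi network (2.43 ± 0.34, adjusted p = 0.531), the GTPase Arf2 (2.69 ± 0.48, adjusted p = 0.918) and Ly6g6e (1.68 ± 0.33, adjusted p = 1.0). The count was 2, 2 and 0 without Saline_GR159897 replicates 1, 2 and 3 and 1, 0 and 0 without Saline_Vehicle replicates 1, 2 and 3. With all 12 libraries it was 2, namely Ddx3y and the Y-linked Eif2s3y, and without the term for the drug arm it was 1, Cox8a.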

How the data were processed

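The authors deposited 1 table of FPKM values per assembled locus, with 2 decimals. Per the submitters' processing notes, cutadapt 1.10, FastQC 0.10.1, HISAT2 2.0 and StringTie 1.3 were used. No source used here names the genome build of the alignment. RNA was precipitated with HA-tagged ribosomes, per the labels' protocols. Libraries were made with SMART-seq v4 and Nextera, and the stated input of 1 ng is of cDNA. Loci with an Ensembl transcript (24432) were kept, 1 per symbol with the highest mean, leaving out 38 duplicates. Of the symbols, 902 merge several genes, and 23497 matched a single GENCODE gene (GRCm38). Depth cannot be recovered from the values. Genes reaching 1 FPKM in 3 or more of the 6 libraries were tested as log2(FPKM + 1) with limma 3.58.1 (trended, robust) in R 4.3.3, two-sided, with Benjamini-Hochberg adjustment. The procedure was also run on simulated data with normally distributed noise, which does not mimic genes listed at 0 in some libraries. The outcome of that run is not used here. Named genes were the 30 highest symbols, all enteric glia genes, the 3 highest and the zero-listed members of other lists, the 10 largest and 10 smallest SDs, and the called or smallest-p genes of each test. Other named list members were added after their values were seen. Some genes that the rule names are not reported here, although counts and sums of the lists include them. The 26 lists and the members were chosen with earlier results of these data known. Of 133 named loci, 123 matched a single gene, and exons of 22 overlap those of another. Python 3.11.15, pandas 2.3.3, numpy 2.4.6 and matplotlib 3.10.9 served for tables and figures. Alternatives were other pseudocounts, filters, scalings, sets of libraries and model terms.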

Additional observations from a re-analysis of the deposited data

Results flagged for a closer look

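Of 157 list sums and named genes tested over the 6 libraries, 21 had 1 library far from the others, judged on the log2(FPKM + 1) scale by its gap to the nearest library as a share of the whole range, against Dixon's limit for 6 values. Chance flags about 1 in 20 where values follow a normal distribution, and the tested values share libraries. Ly6g, Nkg7 and Itgax had a listed 0 in all libraries but 1, which fixes their value at 1.0. The number flagged can therefore not be set against that rate. Saline_GR159897 replicate 2 was the low library for Sparc (0.657), B2m (0.775), Igfbp7 (0.732), Ppia (0.76) and the housekeeping sum (0.701), and the high one for Itgax (1.0), which reached only 0.06 FPKM. Saline_GR159897 replicate 1 was low for Tagln (0.643), Rpl22l1 (0.736), Rpl22 (0.728) and their sum (0.763), and high for Ngfr (0.635). Saline_GR159897 replicate 3 was high for S100a9 (0.886), S100a8 (0.833) and the neutrophil sum (0.655). Saline_Vehicle replicate 2 was low for Sox10 (0.794). Saline_Vehicle replicate 3 was high for Adipoq (0.7), Cidec (0.911), Ly6g (1.0, at 1.69 FPKM against a listed 0), Nkg7 (1.0, at 0.93 FPKM against a listed 0), the lymphocyte sum (0.627) and the pseudogene Gm28661 (0.682, at 1214 FPKM against at most 8.57 FPKM).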

How the results depend on the processing

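The median SD of log2 values was 0.31 with the Saline_Vehicle libraries only, 0.59 with values rescaled to equal annotated totals, 0.57 with a pseudocount of 0.1 and 0.33 without a filter on low values, beside 0.45 as reported. Rescaling multiplied all values while 1 was still added, so the pseudocount became smaller beside them. The 0.59 therefore does not show the effect of equal totals alone. The list sums became 5933 for enteric glia, 1611 for pan-neuronal, 22818 for smooth muscle and 296 for macrophage genes. At 5 FPKM instead of 1 FPKM, 3663 symbols were reached in all 6 libraries. The count of genes between the drug arms was 0 with a pseudocount of 0.1, without a filter, after rescaling, with all 12 libraries and with a sex term (309, 518, 321, 189 and 321 at an unadjusted p under 0.05). The adjusted p of Gm15453 ran from 0.043 to 0.618 over its alternatives. Between the sexes the count was 2 with all 12 libraries and 1 without the term for the drug arm, and that of Cox8a ran from 0.0222 to 1.0. Leaving out 1 library gave 0 to 10 genes between the arms, 0 to 2 between the sexes, a median SD of 0.41 to 0.45, 8225 to 8322 symbols, 28.9% to 29.5% of FPKM on the 100 highest, and sums of 1372 to 1545 FPKM for enteric glia, 381 to 408 for pan-neuronal, 5217 to 5908 for smooth muscle and 63.0 to 76.6 for macrophage genes. Causes were not tested. Replicate numbers were not used as pairs in the main test. Deviations from the group means correlated at 0.04, 0.22 and −0.09 for same-numbered libraries and at −0.27 to 0.24 for others. With 3 libraries per group this cannot decide on pairing, and replicate 3 is the female in each group. With the replicate number as a block 0 genes passed between the arms (388 at an unadjusted p under 0.05). Unknown depth and 3 libraries per arm limit what can be called.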

Other observations

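Polr2f, a small shared subunit of the RNA polymerases, ranked 20 with a mean of 765 ± 214 FPKM (SD, n = 6), while the other 11 subunits of RNA polymerase II in the table lay between 3.90 and 120 FPKM with a median of 38.6 FPKM. Polr2f lies on chromosome 15 from 79141009 to 79151774 (GRCm38, plus strand), and Sox10 lies on the minus strand beyond its end, with 3133 bases between them. Exons of Polr2f overlap those of 1700088E04Rik on the opposite strand. Polr2f was at 454, 848 and 828 FPKM in Saline_GR159897 and at 564, 1035 and 861 FPKM in Saline_Vehicle libraries. It was highest in Saline_Vehicle replicate 2, where Sox10 was lowest, at 15.4 FPKM. A link between the values of Polr2f and Sox10 was not tested.

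Cox8a took 2 separate levels over all 12 libraries of the study. It was at 25.4, 262 and 31.3 FPKM in DNBS_GR159897 and at 28.4, 296 and 22.3 FPKM in DNBS_Vehicle libraries. With the saline values given above, both levels occurred in each sex: DNBS_GR159897 replicate 2, a female, was at 262 FPKM, and replicate 3 of that group, a male, at 31.3 FPKM.

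Malat1, an abundant nuclear RNA, was at 4.42, 101 and 66.3 FPKM in Saline_GR159897 and at 45.9, 79.3 and 24.4 FPKM in Saline_Vehicle libraries. The merged locus of Gm20417 and Gm37376, which overlaps Malat1 on the opposite strand, was at 0.23, 330.0 and 64.5 FPKM in Saline_GR159897 and at 39.6, 2476 and 547 FPKM in Saline_Vehicle libraries. Saline_GR159897 replicate 1 was the lowest for both.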
